A study of Danio rerio with 8 samples.

Results

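The genes described here receive the interferon gamma signal, pass it into the cell and switch it off again: the receptor genes ifngr1 and ifngr1l, the kinase genes jak1 and jak2a, and the inhibitor genes socs1a and socs1b. They were chosen by symbol, and a probe set was counted for a gene where the array's annotation paired it with that symbol and no other. Of 8 symbols looked for, these 6 had such a probe set, with 7 probe sets in all, out of 19260 gene symbols and 75212 probe sets on the array. Of the 6 genes, 5 passed the filter on dim genes (a mean log2 level over all arrays of at least 5.52), and ifngr1l did not.

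Expression was compared between double knockout zebrafish, which lack the microRNA miR-142-3p from both of its genes (mir142a and mir142b), and wild-type zebrafish, in cells sorted from the kidney, the blood-forming organ of adult fish. The 4 groups were 142ab-/- myelomonocytes (granulocyte and monocyte lineage cells), wild-type myelomonocytes, 142ab-/- whole kidney marrow (WKM) and wild-type WKM, where WKM is labelled as sorted without erythrocytes and can hold myelomonocytes along with lymphoid and other cells. All fish were 60 days post-fertilisation, each sample pooled 4 kidneys, and each group had 2 samples that the labels give as independent repeats. How the mutant alleles were made, how many mutant lines were used, whether the wild-type fish were relatives and which gate defined the sort are not stated in the labels.

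As background, interferon gamma binds a receptor made of a ligand-binding chain (ifngr1 and its relative ifngr1l in fish) and a second chain, ifngr2. The chains hold the kinases JAK1 and JAK2, which phosphorylate transcription factors of the STAT family, and these enter the nucleus and switch on genes of antigen presentation and antimicrobial defence. SOCS1 is induced by this signal in mammals, binds the kinases and blocks them, closing a negative feedback loop. In macrophages and granulocytes the pathway is known for priming the killing of intracellular microbes. Zebrafish carry duplicated copies of several of these genes, marked by the letters a and b.

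Replicate arrays correlated at 0.988 to 0.992 over genes and arrays of different groups at 0.907 to 0.974, and no pair of arrays was identical. The 7 measured of 10 neutrophil markers, among them lyz (lysozyme) and mpx (myeloperoxidase), had a mean log2 level of 12.55 on both 142ab-/- myelomonocyte arrays and 12.52 to 12.54 in wild-type myelomonocytes, and 12.15 to 12.17 in 142ab-/- WKM against 12.11 to 12.15 in wild-type WKM. Some markers of other cells moved with genotype in myelomonocytes. Over all genes tested, 12.4% passed by genotype in myelomonocytes and 9.28% in WKM. A count of 1 marker in a list below lies near these shares. The 9 measured of 11 erythroid markers averaged 10.26 to 10.29 in 142ab-/- myelomonocytes and 10.86 to 11.03 in wild-type myelomonocytes, and 6 of them fell. In WKM, although labelled as free of erythrocytes, they were higher still, at 11.79 to 11.99 in 142ab-/- fish and 11.64 to 11.79 in wild-type fish, and 0 of them passed by genotype (1 at an unadjusted p under 0.05). The 9 kidney tubule markers averaged 9.05 to 9.50 in 142ab-/- myelomonocytes and 8.37 to 8.75 in wild-type myelomonocytes, and 5 of them rose. Of the monocyte and macrophage markers, 7 of 10 were measured, and they averaged 8.78 to 9.06 in 142ab-/- myelomonocytes and 9.38 to 9.49 in wild-type myelomonocytes, and 1 fell there and 2 in WKM. In WKM, the 7 measured of 9 B cell markers averaged 8.65 to 9.03 in 142ab-/- fish and 9.32 to 9.43 in wild-type fish, and 2 of them fell (rag2 at −1.61 and cd37 at −1.28). Of 8 tested T and NK cell markers 3 fell in WKM (foxp3a, cd4-1 and zap70). In myelomonocytes 1 of these 8 rose and 0 fell. That marker, lck, read 9.21 and 8.68 in 142ab-/- myelomonocytes, against 7.35 and 6.94 in wild-type myelomonocytes (1.80, limma, adjusted p = 0.00201). Of the 9 kidney tubule markers, 1 fell in WKM. The part of these cells in the results below was not tested. The genes mir142a and mir142b had no named probe set either, so these arrays give no check of the knockout itself.

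The ligand-binding receptor chain gene ifngr1 rose in the knockout in both cell populations. Its probe set read 10.78 and 10.73 (log2) in 142ab-/- myelomonocytes, against 8.34 and 7.79 in wild-type myelomonocytes. In WKM it read 9.90 and 9.67 in 142ab-/- fish, against 6.74 and 6.55 in wild-type fish. All 4 knockout samples therefore lay above all 4 wild-type samples, and even 142ab-/- WKM lay above wild-type myelomonocytes. The rise was 2.69 ± 0.18 on the log2 scale in myelomonocytes, or 6.47-fold (SE, n = 2 per group, limma, adjusted p = 0.000218). In WKM it was 3.14 ± 0.18, or 8.82-fold (limma, adjusted p = 0.000158), the largest rise among the 13774 genes tested there. The difference between the rises, −0.45 with a 95% interval of −1.04 to 0.14, did not pass (adjusted p = 0.489). These are bulk samples, in which more cells of a type that expresses a gene and more RNA per cell cannot be told apart.

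The relative ifngr1l, which encodes another chain of the receptor family, had a dim probe set. It read 4.57 and 4.78 in 142ab-/- myelomonocytes, against 4.75 and 4.63 in wild-type myelomonocytes. The WKM values were 4.40 and 4.53 in 142ab-/- fish, against 4.54 and 4.58 in wild-type fish. All 8 values stayed below the dim level, and the genotypes overlapped in myelomonocytes. Fitted without the filter, its changes of −0.02 and −0.10 did not pass (adjusted p = 0.951 in myelomonocytes and 0.729 in WKM). The current gene table gives crfb13 as another name of ifngr1l, and the array holds a further probe set annotated as crfb13 whose gene identifier that table does not hold, so it was not counted as ifngr1l. That crfb13 probe set read 12.08 and 11.87 in 142ab-/- myelomonocytes, against 11.82 and 11.71 in wild-type myelomonocytes. It read 11.78 and 11.70 in 142ab-/- WKM, against 11.78 and 11.75 in wild-type WKM. Its changes of 0.21 in myelomonocytes and −0.02 in WKM did not pass either (adjusted p = 0.258 and 0.928). Whether it follows the ifngr1l transcript was not tested.

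**Figure D1:**
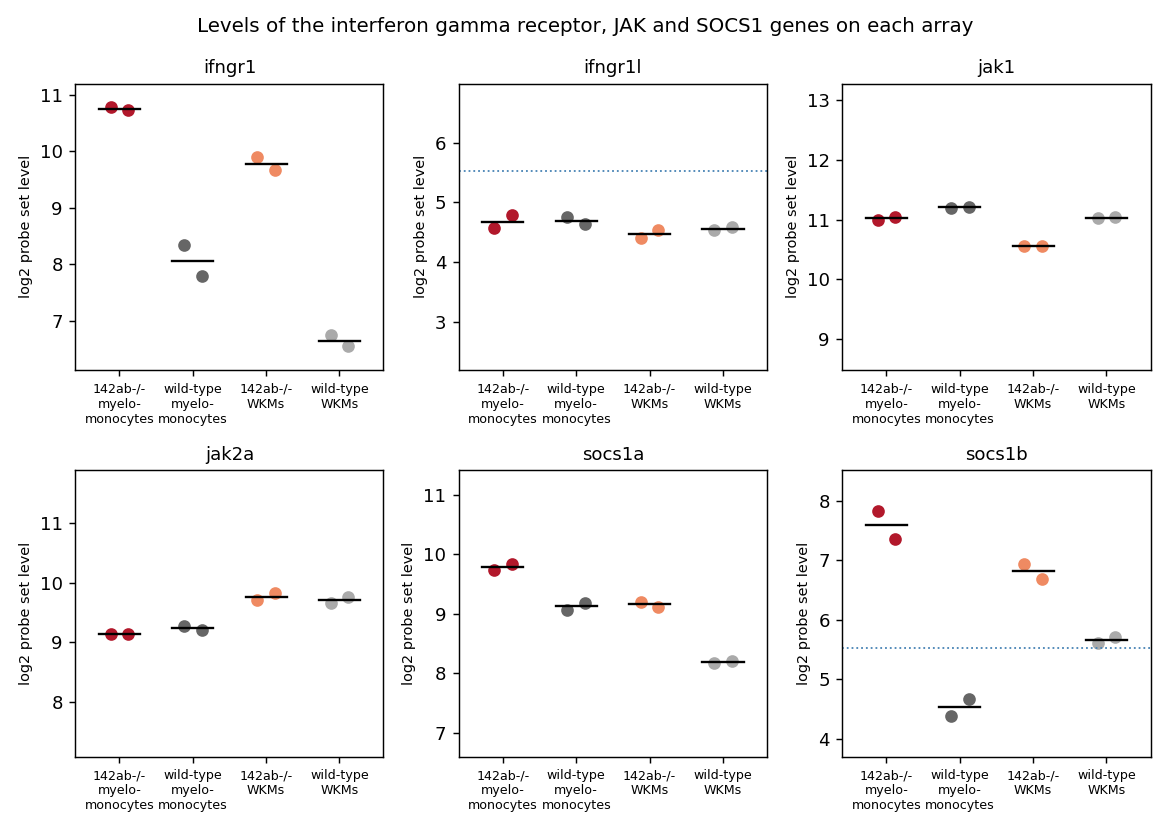
Deposited log2 level of the brightest probe set of each of the 6 measured genes in the 4 groups, with the 142ab-/- group left of the wild-type group in each cell population. The vertical axis is set around each gene's own level, with the same span in each panel except a slightly wider one for ifngr1. Points are single arrays, short lines are group means (n = 2), and the dotted line is the dim level of 5.52. That line falls within the axis range only for ifngr1l and socs1b. For ifngr1, socs1a and socs1b the 142ab-/- points lie above the wild-type points of the same population.

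The partner chain gene of the receptor, ifngr2, showed no such rise. It read 9.05 and 9.03 in 142ab-/- myelomonocytes, against 9.36 and 9.16 in wild-type myelomonocytes, and the change of −0.22 did not pass (adjusted p = 0.263). In WKM it fell by 0.47 on the log2 scale, with 8.34 and 8.24 in 142ab-/- fish against 8.86 and 8.66 in wild-type fish (adjusted p = 0.0406). That call was lost without any single WKM array (adjusted p of 0.0529 to 0.217 over the 7 settings that lost it). The gene of the ligand, ifng1, read 5.11 and 4.82 in 142ab-/- myelomonocytes, against 4.84 and 4.77 in wild-type myelomonocytes. In WKM it read 6.78 and 6.58 in 142ab-/- fish, against 5.95 and 6.37 in wild-type fish, groups that did not overlap. Neither change passed, at 0.16 in myelomonocytes (adjusted p = 0.589) and 0.52 in WKM (adjusted p = 0.092). The myelomonocyte values of ifng1 all lay below the dim level of 5.52, so its change there was measured in dim signal. Its mean over the wild-type arrays also lay below that level. It passed the filter through the knockout arrays, so its tests are not independent of the filter. The other 5 interferon genes on the list were dim.

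Among the kinases, jak1 fell in WKM by a small amount and jak2a did not pass in either population. The jak1 probe set read 10.55 and 10.56 in 142ab-/- WKM, against 11.02 and 11.04 in wild-type WKM. In myelomonocytes it read 10.99 and 11.05 in 142ab-/- fish, against 11.20 and 11.21 in wild-type fish. The genotypes did not overlap in either population, with knockout the lower each time. The fall in WKM was 0.48 ± 0.09 on the log2 scale, 1.39-fold lower (SE, n = 2 per group, limma, adjusted p = 0.0156), and leaving out any single WKM array gave an adjusted p of 0.0815 to 0.0862. The change in myelomonocytes, −0.19 with a 95% interval of −0.39 to 0.02, did not pass (adjusted p = 0.217). The difference between the populations did not pass either (0.29, adjusted p = 0.345).

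The jak2a probe set read 9.14 on both 142ab-/- myelomonocyte arrays, against 9.27 and 9.21 in wild-type myelomonocytes. In WKM it read 9.71 and 9.82 in 142ab-/- fish, against 9.66 and 9.75 in wild-type fish, so the genotypes overlapped. The change was −0.10 in myelomonocytes, with a 95% interval of −0.31 to 0.11, and 0.06 in WKM, with an interval of −0.16 to 0.27 (adjusted p = 0.54 and 0.757). Changes inside these intervals could not be resolved with 2 samples a group.

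Of the 5 Janus kinase genes of zebrafish, which include jak1 and jak2a, 1 rose and 0 fell in myelomonocytes, where 12.4% of all genes tested were called, and 0 rose and 2 fell in WKM, where 9.28% were (unadjusted p under 0.05 for 2 and 3 genes). Their median change was −0.10 in each population, against 0.01 over all genes tested. The gene that rose was jak2b, the other zebrafish JAK2 copy, at 0.41 in myelomonocytes (adjusted p = 0.0381), a call lost in 12 of the 18 alternative settings (adjusted p of 0.0512 to 0.189). The second gene that fell in WKM was tyk2, a kinase of the type I interferon and interleukin-12 receptors in mammals, at −0.45 (adjusted p = 0.0396), a call lost in 9 settings (adjusted p of 0.0526 to 0.214). Counts for the Janus kinases thus ranged from 0 to 2 over settings in both populations.

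The STAT transcription factors are the step that follows the kinases. Of 8 listed STAT genes, 4 were measured, and with limma 0 of them passed in either population (unadjusted p under 0.05 for 0 genes in myelomonocytes and 1 in WKM). Over all genes tested, 12.4% were called in myelomonocytes and 9.28% in WKM. The genes stat1a and stat1b were looked for but had no probe set with that symbol alone. They were not measured, so this step was read only in part. The gene of stat2, which works with IRF9 in the type I interferon response, had changes of 0.29 in myelomonocytes and 0.19 in WKM (adjusted p = 0.205 and 0.43). The gene of stat3, the main factor downstream of interleukin-6 family receptors, had changes of 0.07 and −0.12, and stat5a of 0.01 and −0.11. The gene with the unadjusted p under 0.05 was stat5b, at −0.28 in WKM (adjusted p = 0.144).

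The inhibitor gene socs1a rose in the knockout in both populations. It read 9.74 and 9.83 in 142ab-/- myelomonocytes, against 9.07 and 9.19 in wild-type myelomonocytes. Its WKM values were 9.20 and 9.12 in 142ab-/- fish, against 8.18 and 8.21 in wild-type fish. The genotypes did not overlap within a population, and 142ab-/- WKM overlapped wild-type myelomonocytes. The rise was 0.65 ± 0.10 in myelomonocytes, 1.57-fold (SE, n = 2 per group, limma, adjusted p = 0.00529), and 0.96 ± 0.10 in WKM, 1.95-fold (adjusted p = 0.00158). The difference between the rises was −0.31, with a 95% interval of −0.63 to 0.00, and did not pass (adjusted p = 0.358).

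The other copy, socs1b, has 2 probe sets, which disagreed. The one with the higher mean over all 8 arrays, used for the gene, had the larger rise in myelomonocytes. That choice, and the passing of the filter, rested on the knockout arrays: this probe set averaged 5.10 on the 4 wild-type arrays, below the dim level, and the other averaged 5.60 there. The probe set that shows the rise was thus picked by values that include the rise, and its tests below are not independent of that choice. It read 7.82 and 7.36 in 142ab-/- myelomonocytes, against 4.39 and 4.67 in wild-type myelomonocytes, where both arrays lay below the dim level. In WKM it read 6.94 and 6.69 in 142ab-/- fish, against 5.61 and 5.71 in wild-type fish. All 4 knockout samples lay above all 4 wild-type samples, and the wild-type order (WKM above myelomonocytes) was opposite to the knockout order. The rise was 3.06 ± 0.17 on the log2 scale in myelomonocytes, 8.32-fold (SE, n = 2 per group, limma, adjusted p = 0.000106). In WKM it was 1.16 ± 0.17, 2.23-fold (adjusted p = 0.0076). The WKM call was lost without wild-type WKM replicate 1 (adjusted p = 0.0564) or without 142ab-/- WKM replicate 1 (adjusted p = 0.0507).

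The rise of socs1b was larger in myelomonocytes than in WKM by 1.90 ± 0.24 on the log2 scale, a 3.73-fold difference of folds (SE, 95% interval 1.34 to 2.47, limma, adjusted p = 0.0353). With 1 array left out, this difference lay between 1.67 and 2.13, and it passed in 1 of the 8 such fits, the one without 142ab-/- myelomonocyte replicate 2 (adjusted p of 0.0548 to 0.139 in the other 7). With both probe sets averaged the difference was 0.89 (adjusted p = 0.0403), and in the second probe set alone it was −0.11 (adjusted p = 0.883). The 8.32-fold rise is a ratio of fitted values whose lower side, in wild-type myelomonocytes, lies below the dim level.

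The second probe set for socs1b did not show the rise. It read 5.54 and 5.87 in 142ab-/- myelomonocytes, against 5.94 and 5.61 in wild-type myelomonocytes. Among WKM samples it read 5.30 and 5.65 in 142ab-/- fish, against 5.49 and 5.38 in wild-type fish. The genotypes overlapped in both populations, and the changes of −0.07 and 0.04 did not pass when every probe set was tested on its own (adjusted p = 0.838 and 0.915). All 8 of its values lay between 5.30 and 5.94, close to the dim level. With both probe sets averaged, the rise of socs1b was 1.49 in myelomonocytes and 0.60 in WKM, and still passed in both (adjusted p = 0.000118 and 0.0068). Which stretch of the gene each probe set covers is not stated in the array annotation used, and why they disagree was not tested.

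**Figure D2:**
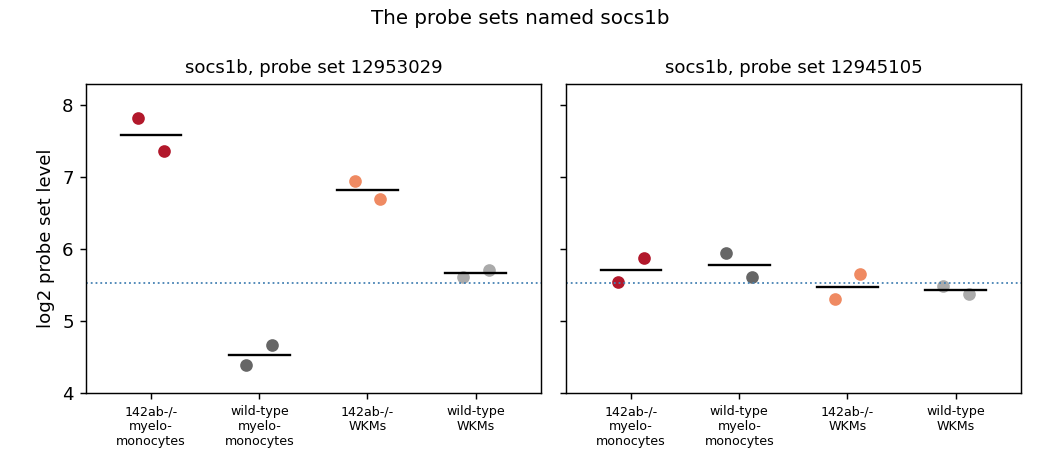
Deposited log2 level of the brighter (12953029) and the second (12945105) socs1b probe set in the 4 groups, with single arrays as points, group means as short lines (n = 2 per group) and the dim level of 5.52 as a dotted line. The brighter probe set separates 142ab-/- from wild-type samples in both populations, and the second stays between 5.30 and 5.94 on all 8 arrays.

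In the wider SOCS family, 13 of 16 listed genes were tested, both socs1 copies among them. The socs1 copies were chosen with earlier results of these data known. The socs1b probe set was kept, and passed the filter, through its knockout values. The counts and medians below are therefore not independent of these choices. In myelomonocytes 2 rose, which were the socs1 copies, and 1 fell, with a median change of 0.13 against 0.01 over all genes (6.85% of which rose and 5.51% fell). In WKM 4 rose and 0 fell, with a median of 0.34 against 0.01 (4.73% rose and 4.55% fell). The 4 WKM calls became 1 without wild-type WKM replicate 1, 2 without 142ab-/- WKM replicate 1 and 2 without 142ab-/- WKM replicate 2. Beside the socs1 copies, the WKM rises were those of cishb and socs3b. The cishb gene, a copy of the STAT5-induced inhibitor CISH, read 8.44 and 8.89 in 142ab-/- WKM, against 7.61 and 7.51 in wild-type WKM (2.14-fold, adjusted p = 0.00964, lost without 3 of the 4 WKM arrays, adjusted p of 0.0531 to 0.0627). The socs3b gene, a copy of the STAT3-induced inhibitor SOCS3, read 11.63 and 11.26 in 142ab-/- WKM, against 10.19 and 10.78 in wild-type WKM (0.96 ± 0.20, adjusted p = 0.0259, lost in 4 settings, adjusted p of 0.05 to 0.13). In myelomonocytes neither passed, with changes of 0.14 for cishb and 0.19 for socs3b (adjusted p = 0.672 and 0.606). The gene that fell in myelomonocytes was socs5b, at −0.59 ± 0.13 (adjusted p = 0.0249), and that call was lost without any single myelomonocyte array (adjusted p of 0.063 to 0.136).

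Read together, 3 of the 5 tested genes of the set rose and 0 fell in 142ab-/- myelomonocytes (ifngr1, socs1a and socs1b), where 12.4% of all genes were called, 6.85% as higher and 5.51% as lower. In WKM the same 3 genes rose and jak1 fell, where 9.28% of all genes were called, 4.73% as higher and 4.55% as lower. The socs1b probe set used was kept, and passed the filter, through its knockout values. With socs1b left out, the counts were 2 of 4 genes in myelomonocytes and 3 of 4 in WKM. The second socs1b probe set, with a mean of 5.60 over all arrays, lay above the filter too. Its changes of −0.07 in myelomonocytes and 0.04 in WKM did not pass. With socs1b included, the median change of the 5 genes was 0.65 in myelomonocytes and 0.96 in WKM, against 0.01 over all genes in each. The change of socs1b lay above this median in both populations (3.06 and 1.16), so the median would be lower without it. The set was chosen with earlier results of these data known, so the values over all genes give scale and are no test of the set. For the difference between the populations, socs1b alone of the 5 passed, where 0.276% of all genes did, and 2 of the 5 had an unadjusted p under 0.05. The count stayed at 3 in myelomonocytes in all 18 alternative settings. In WKM it was 2 without wild-type WKM replicate 1 or without 142ab-/- WKM replicate 1, when both jak1 and socs1b were lost, and 3 without either of the other WKM arrays, when jak1 was lost. Markers of other cells moved with genotype in both populations, as given above, and their part in these counts was not tested. Among them in myelomonocytes were kidney tubule and erythroid markers and lck, which rose. No other of the 8 tested T and NK cell markers was called there, and the median change of the 8 was 0.03. Among them in WKM were 3 of 8 T and NK cell, 2 of 7 B cell and 2 of 7 monocyte and macrophage markers. The median changes of these lists in WKM were −0.10, −0.29 and −0.09, in that order, and 4, 1 and 3 of their markers changed upward.

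**Figure D3:**
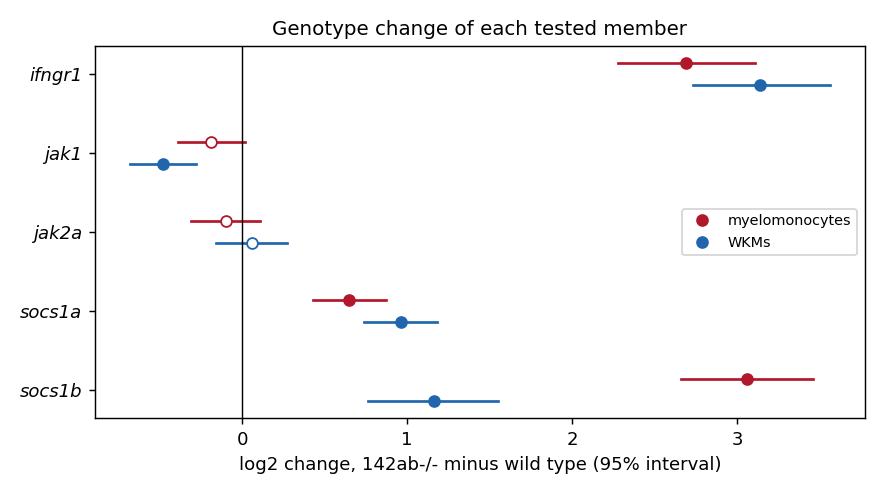
Knockout minus wild-type log2 change of each of the 5 tested genes in myelomonocytes and in WKM, with its 95% interval from the limma fit (n = 2 per group), and filled marks where the adjusted p was under 0.05. The rise of ifngr1 is 2.69 in myelomonocytes and 3.14 in WKM, that of socs1b is 3.06 in myelomonocytes against 1.16 in WKM, and the intervals of jak2a include 0 in both.

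Between the cell populations, jak2a was lower in myelomonocytes and ifngr1 and socs1a were higher, in both genotypes, while the probe set used for socs1b took opposite directions. Within the knockout, all 5 tested genes differed between myelomonocytes and WKM, 4 higher and 1 lower in myelomonocytes, where 44.1% of all genes did (21.5% higher and 22.6% lower). The higher genes were ifngr1 (0.97), jak1 (0.46), socs1a (0.62) and socs1b (0.77), and the lower one was jak2a (−0.63). The socs1b call was lost without 142ab-/- WKM replicate 2 (0.64, adjusted p = 0.0599). Within wild type, 4 of the 5 differed, where 35.6% of all genes did, with 15.5% higher and 20.1% lower in myelomonocytes (2134 and 2766 genes, or 3036 and 2181 after quantile normalization). There ifngr1 (1.42, 2.67-fold) and socs1a (0.94) were higher in myelomonocytes, and jak2a (−0.47) and socs1b (−1.13) were lower. The second socs1b probe set had changes of 0.23 in the knockout and 0.34 in wild type, neither of which passed (adjusted p = 0.314 and 0.156), and averaging both probe sets gave 0.50 and −0.39. In wild type the change of jak1 was 0.17 and did not pass (adjusted p = 0.162). Differences between the populations were thus common on these arrays, and the lymphoid markers differed too: T and NK cell markers averaged 5.73 to 5.96 in 142ab-/- myelomonocytes and 7.42 to 7.61 in 142ab-/- WKM, and 5.69 to 5.71 in wild-type myelomonocytes and 7.69 to 7.85 in wild-type WKM.

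The levels of each gene can be ordered over the 4 groups. For ifngr1 the order was 142ab-/- myelomonocytes (10.76 ± 0.04), 142ab-/- WKM (9.79 ± 0.16), wild-type myelomonocytes (8.06 ± 0.39) and wild-type WKM (6.65 ± 0.14, SD, n = 2 each), and no neighbours overlapped. For socs1b it was 142ab-/- myelomonocytes (7.59 ± 0.32), 142ab-/- WKM (6.82 ± 0.18), wild-type WKM (5.66 ± 0.08) and wild-type myelomonocytes (4.53 ± 0.20), again with no overlap. For socs1a, 142ab-/- myelomonocytes were highest and wild-type WKM lowest, with 142ab-/- WKM and wild-type myelomonocytes overlapping between them. For jak1, wild-type myelomonocytes were highest and 142ab-/- WKM lowest, with wild-type WKM and 142ab-/- myelomonocytes overlapping between them. For jak2a both WKM groups lay above both myelomonocyte groups, and the genotypes overlapped in WKM.

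Genes downstream of the pathway were counted from a list of 39 interferon gamma response genes, of which 30 were tested. In myelomonocytes 9 rose and 1 fell, where 12.4% of all genes were called, with a median change of 0.11 against 0.01 over all genes. In WKM 5 rose and 2 fell, where 9.28% were called, with a median of 0.02 against 0.01, and 3 calls in all were made without any single WKM array. Among those that rose in myelomonocytes was irf1b, a copy of the interferon-induced transcription factor gene IRF1, with 11.65 and 11.18 in 142ab-/- myelomonocytes against 10.03 and 9.74 in wild-type myelomonocytes (1.53 ± 0.18, adjusted p = 0.0023). The gene of irf9, the DNA-binding partner of STAT2 in the type I interferon response, read 8.62 and 8.58 in 142ab-/- myelomonocytes, against 7.60 and 7.39 in wild-type myelomonocytes (1.11 ± 0.11, adjusted p = 0.00128). Others that rose were tap1, a subunit of the MHC class I peptide transporter, at 0.70, psmb10, a subunit of the immunoproteasome, at 0.67, and psme2, a subunit of the proteasome activator, at 0.64 (adjusted p = 0.00585, 0.00631 and 0.00555). Genes of the same antigen-processing machinery that did not pass were psmb8a at 0.10, psmb9a at 0.11, psme1 at 0.36 and b2m, the MHC class I light chain gene, at 0.14 (adjusted p = 0.715, 0.723, 0.075 and 0.559). The calls of irf1b, irf9, tap1, psmb10 and psme2 held in every alternative setting.

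The response gene that fell in myelomonocytes was acod1, which makes itaconate in activated macrophages. It read 7.66 and 7.68 in 142ab-/- myelomonocytes, against 9.38 and 9.12 in wild-type myelomonocytes (−1.58 ± 0.13, adjusted p = 0.000583). In WKM it read 7.46 and 7.29 in 142ab-/- fish, against 8.15 and 8.41 in wild-type fish (−0.91, adjusted p = 0.00704, and 0.0562 without 142ab-/- WKM replicate 2). The monocyte and macrophage markers were also lower in 142ab-/- myelomonocytes, as given above, and their part in this fall was not tested. The other response gene that fell in WKM was parp9, which in mammals aids transcription of interferon-induced genes. It read 5.22 and 5.13 in 142ab-/- WKM, against 6.82 and 6.91 in wild-type WKM (−1.69 ± 0.09, adjusted p = 0.000157). In myelomonocytes parp9 read 5.69 and 5.66 in 142ab-/- fish and 6.01 and 5.94 in wild-type fish, and its changes in the populations differed by 1.39 (adjusted p = 0.0134). Both 142ab-/- WKM values of parp9 lie below the dim level, so the size of its fall there rests on dim signal. The gene passed the filter through the wild-type arrays, so its tests, that of the difference included, are not independent of the filter. Response genes that rose in WKM included ifi30a, a lysosomal thiol reductase gene of antigen processing (0.71, adjusted p = 0.00505). They also included irf9 (0.54, adjusted p = 0.0242), psmb10 (0.55, adjusted p = 0.0171) and gbp1, a guanylate-binding protein gene (0.49, adjusted p = 0.0343). The irf9 call was lost without any single WKM array, the psmb10 call without 3 of the 4, and the gbp1 call in 7 settings (adjusted p of 0.0602 to 0.141, 0.0767 to 0.099 and 0.0515 to 0.176).

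Other inhibitors of JAK-STAT signalling, such as phosphatases, PIAS proteins and ubiquitin ligases, were tested in 18 cases. Of these, 1 rose and 1 fell in myelomonocytes, close to the 12.4% called over all genes. In WKM, with limma, 0 passed, where 9.28% of all genes did (unadjusted p under 0.05 for 3 genes in myelomonocytes and 4 in WKM). Their median changes were −0.05 and −0.08, against 0.01 over all genes. The gene that rose was usp18, which in mammals removes the ubiquitin-like protein ISG15 and damps the type I interferon receptor. It read 6.84 and 6.75 in 142ab-/- myelomonocytes, against 5.89 and 6.23 in wild-type myelomonocytes (0.73 ± 0.14, adjusted p = 0.0148, lost without replicate 1 of either genotype, 0.0597 to 0.0798). The gene that fell was cblb, a ubiquitin ligase that restrains lymphocyte activation in mammals (−0.79 ± 0.19, adjusted p = 0.0315, lost in 4 settings, 0.0678 to 0.146).

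The receptor family to which ifngr1 belongs, the class II cytokine receptors, moved in both directions. Of 21 listed chains 9 were tested, and 2 rose and 2 fell in myelomonocytes (12.4% of all genes were called) while 3 rose and 2 fell in WKM (9.28% were called), where 3 calls were made in all without any single WKM array. Their median changes were −0.01 and −0.11, against 0.01 over all genes. Beside ifngr1, f3b (a copy of the coagulation starter tissue factor, which shares the receptor fold) rose in both populations, by 0.68 and 0.86 (adjusted p = 0.00628 and 0.00367), but not where probe sets were averaged (0.101 and 0.0915). The il22ra2 gene, a soluble receptor that binds interleukin-22, rose in WKM, with 6.51 and 6.15 in 142ab-/- fish against 5.19 and 5.28 in wild-type fish (adjusted p = 0.00543). Its wild-type WKM values lie below the dim level, and it passed the filter through the knockout arrays (mean 5.44 on wild-type arrays), so no fold is given. For the same reason its test is not independent of the filter, and it is counted among the 3 that rose in WKM. The interleukin-10 receptor gene il10ra fell in myelomonocytes, with 8.35 and 8.14 in 142ab-/- fish against 9.23 and 9.49 in wild-type fish (−1.12 ± 0.15, adjusted p = 0.00398). The type I interferon receptor chain gene crfb2 fell by 0.64 in myelomonocytes and 0.75 in WKM (adjusted p = 0.0295 and 0.0206), calls lost in 4 settings each (0.0558 to 0.156 and 0.064 to 0.116).

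Other receptors that signal through Janus kinases also moved both ways. Of 27 tested, 3 rose and 2 fell in myelomonocytes, and 3 rose and 5 fell in WKM, where 12.4% and 9.28% of all genes were called, with medians of 0.02 and −0.08 against 0.01. The 5 calls in myelomonocytes became 1 without wild-type replicate 1, 3 without wild-type replicate 2 and 3 without 142ab-/- replicate 2, and the 8 in WKM became 2 without wild-type WKM replicate 1 and 3 without each of the other WKM arrays. The genes that rose in myelomonocytes were lepr, the leptin receptor gene (1.36 ± 0.17, adjusted p = 0.00277), il21r.1, an interleukin-21 receptor gene (0.74), and crlf2, a receptor chain for thymic stromal lymphopoietin in mammals (0.62). All 3 also rose in WKM, with lepr at 1.06, il21r.1 at 0.70 and crlf2 at 1.85 ± 0.10 (adjusted p = 0.000133 for crlf2). The crlf2 probe set read 8.17 and 8.13 in 142ab-/- WKM, against 6.25 and 6.36 in wild-type WKM, and its rise differed between the populations by −1.23 (adjusted p = 0.0268). In myelomonocytes it read 5.56 and 5.48 in 142ab-/- fish, against 4.84 and 4.95 in wild-type fish. These values lie close to or below the dim level, so the smaller rise there was measured in dim signal. Leaving out single arrays ended the il21r.1 calls in both populations, the lepr call in WKM and the crlf2 call in myelomonocytes (adjusted p of 0.0503 to 0.12). The genes that fell in myelomonocytes were il4r.1, an interleukin-4 receptor gene (−0.96, adjusted p = 0.026), and osmr, an oncostatin M receptor gene (−0.75, adjusted p = 0.0399). The il4r.1 probe set read 5.14 and 5.23 in 142ab-/- myelomonocytes, below the dim level, against 6.05 and 6.26 in wild-type myelomonocytes. It passed the filter through the wild-type arrays, so its test is not independent of the filter. Among those that fell in WKM were osmr (−0.97, adjusted p = 0.0205), il13ra1, an interleukin-13 receptor gene (−0.81, adjusted p = 0.0142), and lifrb, a leukaemia inhibitory factor receptor gene (−0.73, adjusted p = 0.0158). Leaving out single arrays of the population compared ended each of these 5 calls (adjusted p of 0.0509 to 0.162 over the settings that lost one).

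**Figure D4:**
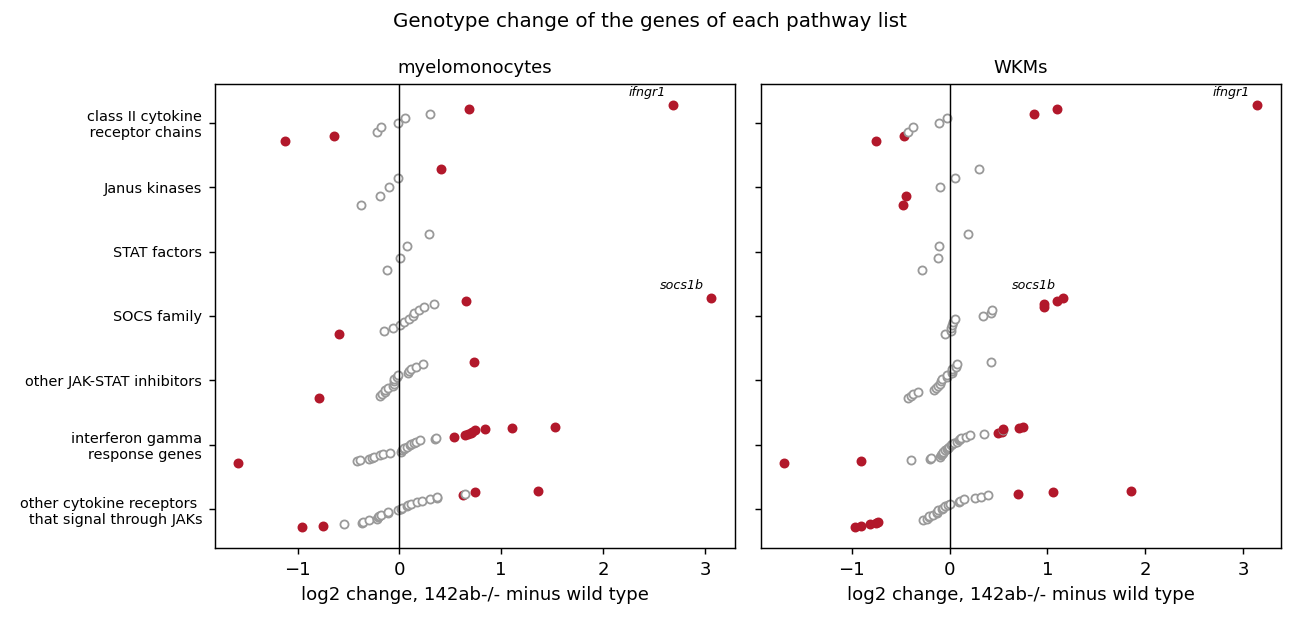
Knockout minus wild-type log2 change (horizontal axis) of every tested gene of 7 pathway lists (1 per row, spread vertically only to separate points), with myelomonocytes on the left and WKM on the right, filled points for genes with an adjusted p under 0.05 and open points for the rest. In both populations ifngr1 lies farthest right among the class II receptor chains, and socs1b among the SOCS family, at 3.06 in myelomonocytes and 1.16 in WKM.

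The genes whose levels followed each gene most closely over the 8 arrays were taken by the root mean square difference of centred log2 levels. For ifngr1 these were and3, cyp27a1.1 and wscd1b, at 0.48, 0.54 and 0.54, where the SD of ifngr1 itself over the arrays was 1.59. For socs1b they were aqp3a, gch2 and tceanc, at 0.16, 0.24 and 0.32 against an SD of 1.17. For socs1a they were f3b, adora2b and dgkh, at 0.08, 0.10 and 0.11 against an SD of 0.57. For jak1 they were ikbkb, arhgef6 and zfp36l1b, at 0.03 to 0.05 against an SD of 0.24, and for jak2a hbs1l, rps25 and cops2, each at 0.04 against an SD of 0.28. The match was closest in absolute terms for the kinases, which varied least, and ifngr1 had the most distant nearest genes. All profiles share the same 8 arrays, and the list says nothing of shared function.

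The neighbours of the changed genes in chromosome order were also read, 10 tested genes for each (5 to each side). Over all genes tested, 12.4% were called in myelomonocytes and 9.28% in WKM. Of the neighbours of ifngr1, with limma 0 passed in either population (unadjusted p under 0.05 for 0 genes in myelomonocytes and 2 in WKM). Their changes lay between −0.23 and 0.20 in myelomonocytes and between 0.03 and 0.37 in WKM. Of the neighbours of socs1b, 2 passed in myelomonocytes, among them prkcba, a protein kinase C gene (0.65), and 0 passed in WKM (1 at an unadjusted p under 0.05). Of the neighbours of socs1a, 1 passed in myelomonocytes (pigq, at −0.60) and 0 in WKM (1 at an unadjusted p under 0.05). Of the neighbours of jak1, 1 passed in myelomonocytes and 2 in WKM, and in both populations lepr was among them.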

How the data were processed

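RNA of 8 samples (4 groups of 2) was measured on a 1-colour Affymetrix whole-transcript array. Biotin-labelled cRNA was made from 200 ng of total RNA, per the labels' protocols. The deposited table holds 1 log2 value for each probe set and array, a scale read from its range (1.63 to 13.8). How the authors corrected background, summarised probes and normalized is not stated in the labels or the file header. The values entered the fit unchanged, and array medians lay between 5.49 and 5.54. Array number limits the precision. Of the probe sets, 20806 had 1 gene symbol, 855 several and 53551 none. The RefSeq gene table of assembly GRCz12tu matched 20323 by Entrez identifier, updated 1 symbol, and served for names and gene order only. Genome coordinates and sequences are not used here.

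The probe set with the highest mean was kept for each gene, and 13774 genes with a mean at or above 5.52 (the 50th percentile over probe sets) were tested. Tests were two-sided and used limma 3.58.1 in R 4.3.3: 1 fit with a mean per group over all 8 arrays (4 residual and 4 prior degrees of freedom), with p-values adjusted by Benjamini-Hochberg over all tested genes and called under 0.05. The fit was tested on simulated data. The members and lists were chosen with earlier results of these data known, so no p was adjusted over a list. All members with a probe set were named, with up to 6 called genes of each list and comparison with the smallest p, and the 3 nearest profiles of each tested member. Other genes named (ifng1, crfb13, the STAT genes, gene-order neighbours, antigen-processing genes that did not pass) were chosen after their values were seen. The 18 alternatives changed the filter, the choice of probe set, the scaling, the arrays or terms of the fit, or left out 1 array. No scan or hybridisation batch is stated in the labels, so none was tested.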

Additional observations from a re-analysis of the deposited data

Results flagged for a closer look

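The inhibitor gene socs1b was singled out because its knockout effect differed between the cell populations by a test of that difference. Its rise in myelomonocytes exceeded that in WKM by 1.90 on the log2 scale (limma, adjusted p = 0.0353), with 7.82 and 7.36 in 142ab-/- myelomonocytes against 4.39 and 4.67 in wild-type myelomonocytes, and 6.94 and 6.69 in 142ab-/- WKM against 5.61 and 5.71 in wild-type WKM. This probe set was kept for the gene and passed the filter through the knockout arrays (mean 5.10 on the 4 wild-type arrays, below the dim level of 5.52), so the test is not independent of that choice. Both wild-type myelomonocyte values lay below the dim level. With 1 array left out, the difference lay between 1.67 and 2.13, and most such fits lost the call, as given above. Averaging both probe sets gave a difference of 0.89 (adjusted p = 0.0403). The second socs1b probe set gave a difference of −0.11 (adjusted p = 0.883). Kidney tubule markers (5 of 9 higher) and erythroid markers (6 of 9 lower) also moved with genotype in myelomonocytes, where 12.4% of all genes were called. Of the 8 tested T and NK cell markers, lck alone was called there (higher by 1.80), and the median change of the 8 was 0.03. The part of these markers in this difference was not tested.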

How the results depend on the processing

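Over the alternatives, 441 of 455 values of the set kept their direction and their side of the threshold, 14 lost a call and 0 reversed, and each of the 14 came from leaving out 1 array. The rise of ifngr1 lay between 2.41 and 2.97 in myelomonocytes and between 3.03 and 3.26 in WKM. With 1 array left out, the number of genes of the set called lay between 3 and 3 in myelomonocytes, 2 and 4 in WKM, 0 and 1 for the difference between the populations (limma, with 1 or 2 at an unadjusted p under 0.05), 4 and 5 between the populations in the knockout and 4 and 4 in wild type. The other 10 settings left these counts as reported. Over all genes, deviations from the group means of same-numbered knockout and wild-type samples correlated at 0.09 in myelomonocytes and 0.00 in WKM, from 2 pairs. A correlation over all genes cannot show whether some genes share a replicate effect. The kidney tubule marker slc12a3, picked after its values were seen, read higher in replicate 2 than in replicate 1 in all 4 groups. The neutrophil marker mpx had no such common direction. A replicate effect limited to some genes was not tested. Whether myelomonocyte and WKM samples of the same genotype and number were paired was not tested. The replicate block changed no call of the set, with socs1b at 3.06 (adjusted p = 0.000294) in myelomonocytes. With that block, 2073 genes were called in myelomonocytes and 1572 in WKM, against 1703 and 1278 without it. Over all genes, the count called was 719 to 1483 with 1 array left out and 1108 with only the 4 arrays compared, against 1703 in myelomonocytes. In WKM it was 361 to 1392 with 1 array left out, against 1278. For the difference it was 1 to 25 with 1 array left out, 23 after quantile normalization, 77 with the replicate block and 94 with an intensity trend, against 38. Between the populations in wild type it was 2950 to 5293 with 1 array left out, against 4900. With 2 samples a group, limits on small changes, as of jak2a, come from the number of arrays, and ifngr1l and socs1b in wild-type myelomonocytes from signal near the dim level. The causes of the lost calls were not tested.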
